A study of Mus musculus with 23 samples.

Results

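The iron handling genes described here are 10 genes of iron uptake, storage, export and regulation: Trf, Tfrc, Slc11a2, Slc40a1, Fth1, Ftl1, Cybrd1, Heph, Aco1 and Ireb2. They were taken by symbol from a table of read counts for 24917 gene loci, where each stands at 1 locus. Total RNA depleted of ribosomal RNA was sequenced from the colonic epithelium of male C57BL/6 mice (C57BL/6J in the study's methods) in 23 samples. Feeding began at 6 weeks of age and lasted 43 weeks. The LF group received a purified diet with 10% of calories from fat throughout, the HF group a lard-based one with 60%, and the HFLF group the 60% one for 15 weeks and then the 10% one for 28 weeks. There were 4 LF, 3 HF and 4 HFLF samples in batch 1, and 4 LF, 3 HF and 5 HFLF samples in batch 2. With 5 mice per regimen in the study's methods, some of the 23 samples may share a mouse, and p-values measure only the spread between these samples. The questions were whether obesity on the HF diet was accompanied by changed expression (HF against LF), and whether such changes persisted after a return to the LF diet (HFLF against HF and against LF).

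Dietary iron is reduced by a ferrireductase at the surface of the enterocyte, enters through the divalent metal transporter DMT1, is stored in ferritin and leaves the cell through ferroportin. Iron from the blood enters cells when transferrin binds its receptor and is taken up by endocytosis. Cells adjust these steps after transcription: when iron is scarce, the iron regulatory proteins bind iron responsive elements (IREs), hairpins in the untranslated regions, which blocks translation of the ferritins and ferroportin and stabilises the mRNA of the transferrin receptor.

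The hairpins are shown because this regulation acts through such sites, and only their classical form was searched for. A search of GENCODE vM21 transcripts (build mm10) on the transcript strand used the letters of the classical IRE: a bulged C, 5 bases, the loop CAGTG and a base other than G, then 5 bases able to pair with the first 5, G with T included. Capitals mark the bulged C and the loop. The 4 matches of Tfrc lie in its 3′ UTR on the + strand, at chr16:32631220-32631246, chr16:32631599-32631625, chr16:32631664-32631690 and chr16:32631711-32631737. Those of Slc40a1 (chr1:45925466-45925492, - strand), Fth1 (chr19:9982733-9982759, + strand) and Ftl1 (chr7:45459780-45459806, - strand) lie in the 5′ UTR.
Tfrc site A: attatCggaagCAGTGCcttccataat
Tfrc site B: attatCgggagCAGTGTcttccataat
Tfrc site C: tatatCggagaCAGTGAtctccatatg
Tfrc site D: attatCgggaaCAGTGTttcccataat
Slc40a1: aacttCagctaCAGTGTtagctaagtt
Fth1: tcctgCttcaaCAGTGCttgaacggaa
Ftl1: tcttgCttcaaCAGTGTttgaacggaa

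Of 21899 coding genes, 21 held such a match in the 5′ UTR (0.0959%) and 98 in the 3′ UTR (0.448%). No match was found in the UTRs of the other 6 members, Slc11a2 among them, which says only that these letters were not in the transcripts searched. The search also found no match in Epas1, Cdc14a, Cdc42bpa, App and Sdhb, which are listed below among other mRNAs with a described IRE. A missing match is therefore not read as the absence of an IRE. A match is a description of the sequence, and RNA levels do not measure translation.

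Counts on genes ranged from 29189922 to 46498521 per sample in batch 1 and from 31607019 to 65320947 in batch 2. Values per sample are given as CPM, the count of a gene relative to the size of its library, scaled by TMM within each batch. Markers of colonic epithelium summed to 12070 to 16420 CPM in every sample. The third HF sample of batch 1 stood apart from the other samples of its batch, with a score of 61.95 on the first principal component where the other samples lay between -26.26 and 14.2. In batch 2 the second HF sample had the highest score, 40.99, and the next was 18.29. For the members and the other genes named, calls that changed without 1 of these samples are given.

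Levels between genes were compared per kilobase of exon, in the LF samples. The ferritin chains had the highest levels, and the ferritin light chain Ftl1 (720 ± 40.5 CPM per kilobase, SD, n = 4, in batch 1; 750 ± 104 in batch 2) exceeded the heavy chain Fth1 (493 ± 58.6 and 458 ± 22.96). The iron exporter ferroportin, Slc40a1, followed at 108 ± 16.8 and 105 ± 9.08, and then the transferrin receptor Tfrc at 72.1 ± 12.02 and 55.2 ± 5.40. Hephaestin (Heph), the ferroxidase that works with ferroportin, lay at 52.5 ± 1.36 and 47.8 ± 4.70, so that its samples overlapped those of Tfrc in batch 2 and not in batch 1. The iron regulatory proteins lay lower, Aco1 (IRP1) at 35.3 ± 0.835 and 39.6 ± 2.55 and Ireb2 (IRP2) at 16.5 ± 1.02 and 19.2 ± 0.499. The iron importer DMT1, Slc11a2, at 14.1 ± 6.03 and 12.9 ± 0.876, overlapped Ireb2 in batch 1 and not in batch 2. Transferrin, Trf, was at 4.33 ± 1.13 and 6.46 ± 0.938. The order of the 2 ferritin chains depends on the exon lengths, 1558 bases for Fth1 and 968 for Ftl1, which pool all annotated transcripts. In plain CPM the LF means were 767.5 for Fth1 and 697.1 for Ftl1 in batch 1. They were 714 and 726.2 in batch 2, so an excess of the light chain is not read from these levels. How reads shared with near-identical copies were counted is not stated, so the ferritin levels are uncertain.

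**Figure D1:**
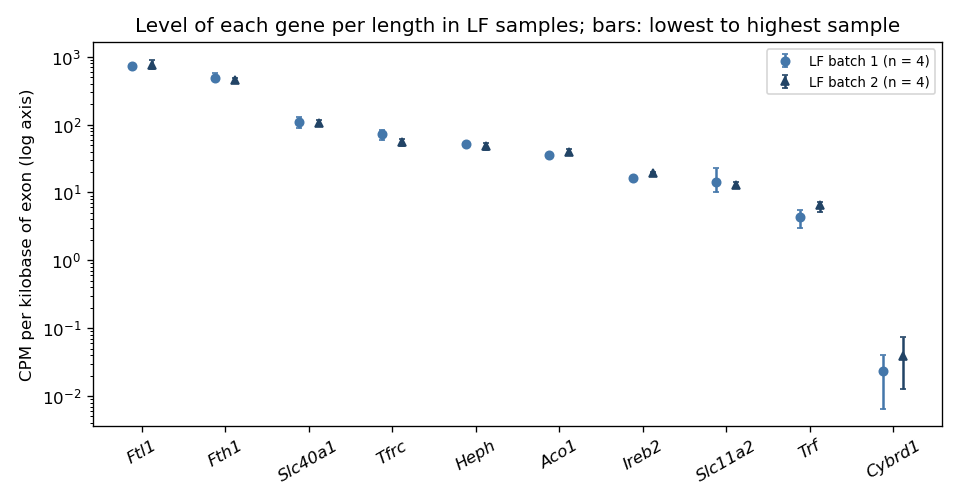
Level of each gene in the LF samples, in CPM per kilobase of exon on a log axis, with the mean of each batch (n = 4) as a point and the lowest to highest sample as a bar. Ftl1 and Fth1 stand highest, from 434 to 898, and Cybrd1 lies under 0.1 in every sample.

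Cybrd1, the duodenal ferrireductase, was close to absent. It had 0 to 16 counts per sample (at most 0.486 CPM), and a sample needed 3 counts to exceed the limit that a count of 0 allows. It did not pass the filter on low counts, so that the tests below cover the other 9 members.

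Trf and Tfrc, which encode transferrin and its receptor, were the members called higher on the HF diet when both batches were fitted together. Both were lower in HFLF than in HF mice. In batch 2 Slc11a2 was also higher in HF mice, and Slc11a2 and Slc40a1 were lower in HFLF than in HF mice. The ferritins, Heph, Aco1 and Ireb2 were not called in any comparison, and no member was called between HFLF and LF mice. A call needed an adjusted p (Benjamini-Hochberg, over all genes tested) under 0.05 and a fold above 1.2 in edgeR's quasi-likelihood test.

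In HF against LF, 0 of 9 members were called in batch 1, where 0% of the 14428 genes tested were called, and 3 members had an unadjusted p under 0.05 (3198 of all genes). DESeq2 called 2 of them, Trf and Ireb2, and 3.55% of all genes, and limma voom called 0. In batch 2, 3 of 9 members were called, all higher, against 7.44% of 14377 genes called in either direction and 3.03% higher. In both batches fitted with batch as a covariate, 2 of 9 were called, both higher, against 18.1% of 14385 genes and 9% higher. The median log2 fold change of the 9 members was 0.15, 0.14 and 0.16 in the 3 fits, and that of all genes between -0.0128 and -0.0038. With 9 members, these counts are descriptions.

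In HFLF against HF, 0 members were called in batch 1 (0.00693% of all genes, 1 gene), and 1 member had an unadjusted p under 0.05 (1566 of all genes). DESeq2 and limma voom also called 0. In batch 2, 4 members were called, all lower, against 14.5% of all genes and 5.61% lower. In both batches, 2 were called, both lower, against 10.3% and 4.9% lower. These fits share the HF samples with the comparison of HF and LF. In HFLF against LF no member was called in batch 1 (0% of all genes), in batch 2 (0.00696%) or in both (0%), and 1, 0 and 0 members had an unadjusted p under 0.05 (763, 669 and 591 of all genes). DESeq2 and limma voom called 0 members in these comparisons as well.

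**Figure D2:**
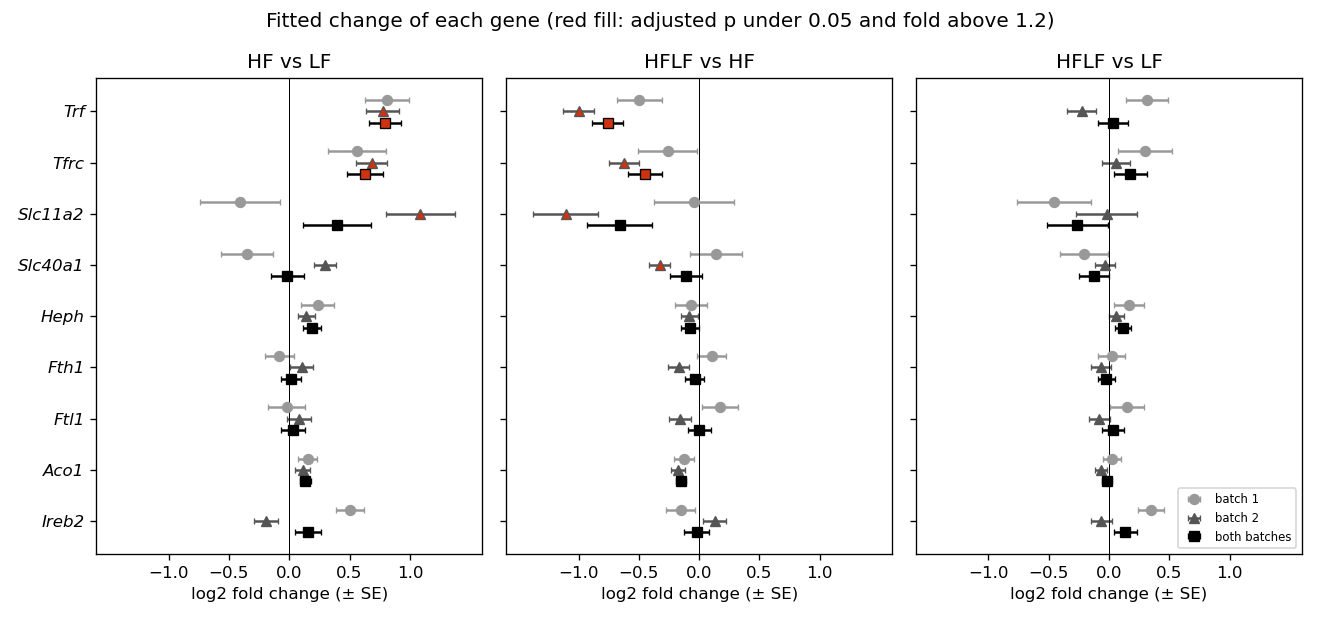
Log2 fold change (horizontal axis) of the 9 members tested, ± SE, in HF against LF, HFLF against HF and HFLF against LF, for batch 1, batch 2 and both batches. A red fill marks an adjusted p under 0.05 with a fold above 1.2. Trf lies between 0.77 and 0.81 in HF against LF in all 3 fits, and Slc11a2 lies at -0.41 in batch 1 and at 1.09 in batch 2.

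Trf encodes transferrin, the iron carrier of the plasma, which the liver makes in bulk (chr9:103208876-103230286). In batch 1 its levels were 21.0, 19.0 and 22.6 CPM in the HF samples, 13.8, 8.28, 15.1 and 10.4 in the LF samples, and 17.7, 14.9, 11.9 and 14.6 in the HFLF samples. In batch 2 they were 32.1, 31.6 and 27.7 CPM in HF, 14.0, 19.7, 18.0 and 19.3 in LF, and 17.7, 12.7, 12.2, 16.7 and 16.7 in HFLF. In both batches every HF sample was above every LF and every HFLF sample of its batch, and the LF and HFLF samples overlapped.

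Trf was higher in HF than in LF mice by a log2 fold change of 0.79 ± 0.13 (SE) over both batches, a fold of 1.73 (adjusted p = 0.00166, edgeR). Within the batches the values were 0.81 ± 0.19 (adjusted p = 0.137) and 0.77 ± 0.13 (adjusted p = 0.0149). In HFLF against HF it fell by 0.76 ± 0.13 on the log2 scale over both batches (adjusted p = 0.00499), by 1.00 ± 0.13 in batch 2 (adjusted p = 0.00228), and had a log2 fold change of -0.50 ± 0.18 in batch 1 (adjusted p = 0.412). HFLF and LF differed by 0.03, with a 95% interval of -0.22 to 0.29. Over both batches Trf was called in all 31 alternative fits of each of the first 2 comparisons, with log2 fold changes of 0.73 to 0.84 and of -0.83 to -0.71. In batch 2 alone, HF against LF was no longer called without the third LF sample (adjusted p = 0.0524) or without the second HF sample (adjusted p = 0.0819). In batch 1 alone it was called when the second HF sample was left out (0.87, adjusted p = 0.0367).

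A list of 5 hepatocyte markers was measured beside Trf. It summed to 33.7 to 37.8 CPM in HF of batch 2 and to 19.8 to 27.7 in LF (ratio of means 1.47, exact permutation test, two-sided p = 0.0286, the smallest that 3 against 4 samples allow, and 0.229 after adjustment over 48 comparisons of marker sums). In HFLF against HF the ratio was 0.651 (exact p = 0.0179, the smallest possible). In batch 1, HF and LF overlapped (19 to 34.4 and 18.9 to 27.7 CPM, ratio 1.14, exact p = 0.486). Most of the sum was Ttr, transthyretin, with means of 33.0 CPM in HF and 22.5 in LF in batch 2. Without Ttr, the sums were 1.83 to 2.42 CPM in HF and 1.24 to 1.53 in LF in batch 1, and 2.02 to 2.19 and 1.19 to 1.56 in batch 2. Albumin, Alb, did not exceed 2.05 CPM in any sample, and Fgb and Serpina1a were at or near 0, at most 0.0539 CPM. The part of these transcripts in the result for Trf was not tested. In bulk RNA, a change in the number of cells of a type and a change in RNA per cell cannot be told apart.

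Tfrc encodes transferrin receptor 1, which brings iron-loaded transferrin into the cell and carries the 4 IREs printed above (chr16:32608896-32632794). In batch 1 its levels were 437, 422 and 799.9 CPM in HF, 436, 304, 341 and 418 in LF, and 541, 307, 438 and 560.0 in HFLF. In batch 2 they were 597, 386 and 397 CPM in HF, 248, 314, 297 and 287 in LF, and 302, 294, 331, 288 and 278 in HFLF. The groups overlapped in batch 1. In batch 2 every HF sample was above every LF and HFLF sample. One HF sample in each batch, the third of batch 1 and the first of batch 2, lay well above the other HF samples of its batch.

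Tfrc was higher in HF than in LF mice by 0.63 ± 0.15 on the log2 scale over both batches, a fold of 1.54 (adjusted p = 0.00700, edgeR), and by 0.68 ± 0.13 in batch 2 (adjusted p = 0.0188). In batch 1 the value was 0.56 ± 0.24 (adjusted p = 0.204). In HFLF against HF it fell by 0.45 ± 0.14 over both batches (adjusted p = 0.0372) and by 0.62 ± 0.12 in batch 2 (adjusted p = 0.0131), and its value in batch 1 was -0.26 ± 0.24 (adjusted p = 0.673). HFLF and LF differed by 0.18 over both batches, with a 95% interval of -0.10 to 0.45.

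The size of the Tfrc difference depended on the 2 high HF samples. Without both, a fit chosen after seeing the data, HF against LF over both batches was 0.34 (adjusted p = 0.0793), and HFLF against HF was -0.17 (adjusted p = 0.401). Without the third HF sample, batch 1 gave 0.21 (adjusted p = 0.705). Without the first HF sample, batch 2 gave 0.45 (adjusted p = 0.0308). In batch 2 the call in HF against LF was also lost without the first LF sample (0.62, adjusted p = 0.0662) or the third (0.70, adjusted p = 0.0577), and that in HFLF against HF without the second HF sample (-0.75, adjusted p = 0.0520). Over both batches, the call in HF against LF was kept in 30 of 31 alternatives, and that in HFLF against HF in 20 of 31. The latter was lost without the second HFLF or the third HF sample of batch 1, and without HFLF replicate 1, 2 or 4 or any HF sample of batch 2 (adjusted p = 0.0508 to 0.112).

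Dividing cells are known to display much Tfrc, and 13 genes of cycling cells were measured beside it. They summed to 619 to 1046 CPM in HF and to 427 to 639 in LF in batch 1 (ratio 1.57, exact permutation test, two-sided p = 0.0857), and to 816 to 919 and 771 to 851 in batch 2 (ratio 1.07, exact p = 0.200). Without Mki67, the highest of the list, the sums in batch 1 were 462 to 788 CPM in HF and 318 to 415 in LF. These did not overlap (ratio 1.605, exact p = 0.0286, unadjusted, the smallest that 3 against 4 samples allow). In batch 2 the ratio without Mki67 was 1.116 (exact p = 0.0857), with overlap. The third HF sample of batch 1 had the highest sum of the 13 genes, 1046 CPM, as it had the highest Tfrc. Without that sample the ratio in batch 1 was 1.32 (permutation test, p = 0.267). This p is 2 times the smaller tail, a rule unlike that of the other exact p, and is not to be set against them. In batch 2 the HF sample with the highest Tfrc had a sum of 816 CPM, and the other HF samples had 919 and 817. Over both batches, 9 of the 13 were called higher in HF than in LF, among them Rrm2 at 0.69 (adjusted p = 0.0180) and Pcna at 0.32 (adjusted p = 0.00967), beside 18.1% of all genes called and 9% higher, and 8 were called lower in HFLF than in HF, beside 10.3% and 4.9% lower. Without the third HF sample of batch 1 these counts were 2 and 3, beside 11% and 3.47% of all genes called. Without the second HF sample of batch 2 they were 8 and 5, beside 12.6% and 3.76%. Within the batches 0 were called in HF against LF, beside 0% of all genes in batch 1 and 7.44% in batch 2. In HFLF against HF 0 were called in batch 1 (0.00693% of all genes) and 1, lower, in batch 2 (14.5%). The part of cycling cells in the result for Tfrc was not tested.

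Slc11a2 encodes DMT1, which carries ferrous iron into the cell and out of the endosome (chr15:100387900-100423055). In batch 1 its levels were 51.5, 96.5 and 34.3 CPM in HF, 132, 70.8, 60.7 and 59.1 in LF, and 50.9, 78.0, 52.8 and 53.4 in HFLF. In batch 2 they were 284, 94.2 and 94.0 CPM in HF, 80.6, 71.7, 75.0 and 68.9 in LF, and 84.1, 68.3, 83.1, 66.8 and 63.1 in HFLF. All HF samples of batch 2 exceeded the LF and HFLF samples, while in batch 1 the groups overlapped.

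In batch 2 Slc11a2 was higher in HF than in LF mice by 1.09 ± 0.28 on the log2 scale (adjusted p = 0.0382, edgeR) and fell by 1.11 ± 0.27 in HFLF against HF (adjusted p = 0.0196). In batch 1 the values were -0.41 ± 0.33 (adjusted p = 0.462) and -0.05 ± 0.33 (adjusted p = 0.962), and over both batches 0.39 ± 0.28 (adjusted p = 0.294) and -0.66 ± 0.27 (adjusted p = 0.0870). The size in batch 2 came from the first HF sample, 1.59 above the other HF samples on the log2 scale, the second largest such gap among 8256 genes with a mean log2 CPM over 4. Without that sample HF against LF was 0.35 (adjusted p = 0.0639) and HFLF against HF was -0.37 (adjusted p = 0.0372). Among 18 alternatives in batch 2, HF against LF was called in 10, with adjusted p from 0.0266 to 0.101. Besides that sample, it was lost in limma voom (adjusted p = 0.0568), with only the 2 diets fitted (adjusted p = 0.0556), and when LF replicate 1, 2 or 3 or HF replicate 2 or 3 was left out (1.13, 1.07, 1.09, 1.36 and 1.35, with adjusted p = 0.0980, 0.0665, 0.101, 0.0819 and 0.0531). HFLF against HF was called in 17 of the 18, and lost without the second HF sample (adjusted p = 0.0633). Without the first HF sample of batch 2, the value over both batches was -0.06 (adjusted p = 0.837) in HF against LF. Without the third HF sample of batch 1, HFLF against HF over both batches was called (-0.86, adjusted p = 0.0486).

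Slc40a1 encodes ferroportin, the only known exporter of iron from cells (chr1:45908070-45925594). In batch 1 its levels were 338, 355 and 162 CPM in HF, 383, 430.1, 297 and 345 in LF, and 296, 352, 304 and 305 in HFLF. In batch 2 they were 463, 446 and 391 CPM in HF, 344, 396, 323 and 350.3 in LF, and 382, 303, 333, 363 and 346 in HFLF. Every HF sample of batch 2 was above every HFLF sample, and 1 LF sample exceeded the lowest HF sample. In batch 1 the third HF sample was the lowest of all samples, and the groups overlapped.

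Slc40a1 fell by 0.33 ± 0.09 on the log2 scale in HFLF against HF in batch 2 (adjusted p = 0.0238, edgeR). HF against LF was 0.29 ± 0.09 there (adjusted p = 0.0526). In batch 1, HF against LF was -0.35 ± 0.22 (adjusted p = 0.331), and without the third HF sample it was -0.06 (adjusted p = 0.858). Over both batches HF and LF differed by -0.02, with a 95% interval of -0.30 to 0.26. The call in HFLF against HF in batch 2 was lost without the first HF sample (adjusted p = 0.0654) or the second (adjusted p = 0.124). HF against LF in batch 2 was called in 6 of 18 alternatives, with adjusted p from 0.0145 to 0.210, among them the fits without the fourth LF, the first HFLF or the second HFLF sample (adjusted p = 0.0488, 0.0426 and 0.0429).

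**Figure D3:**
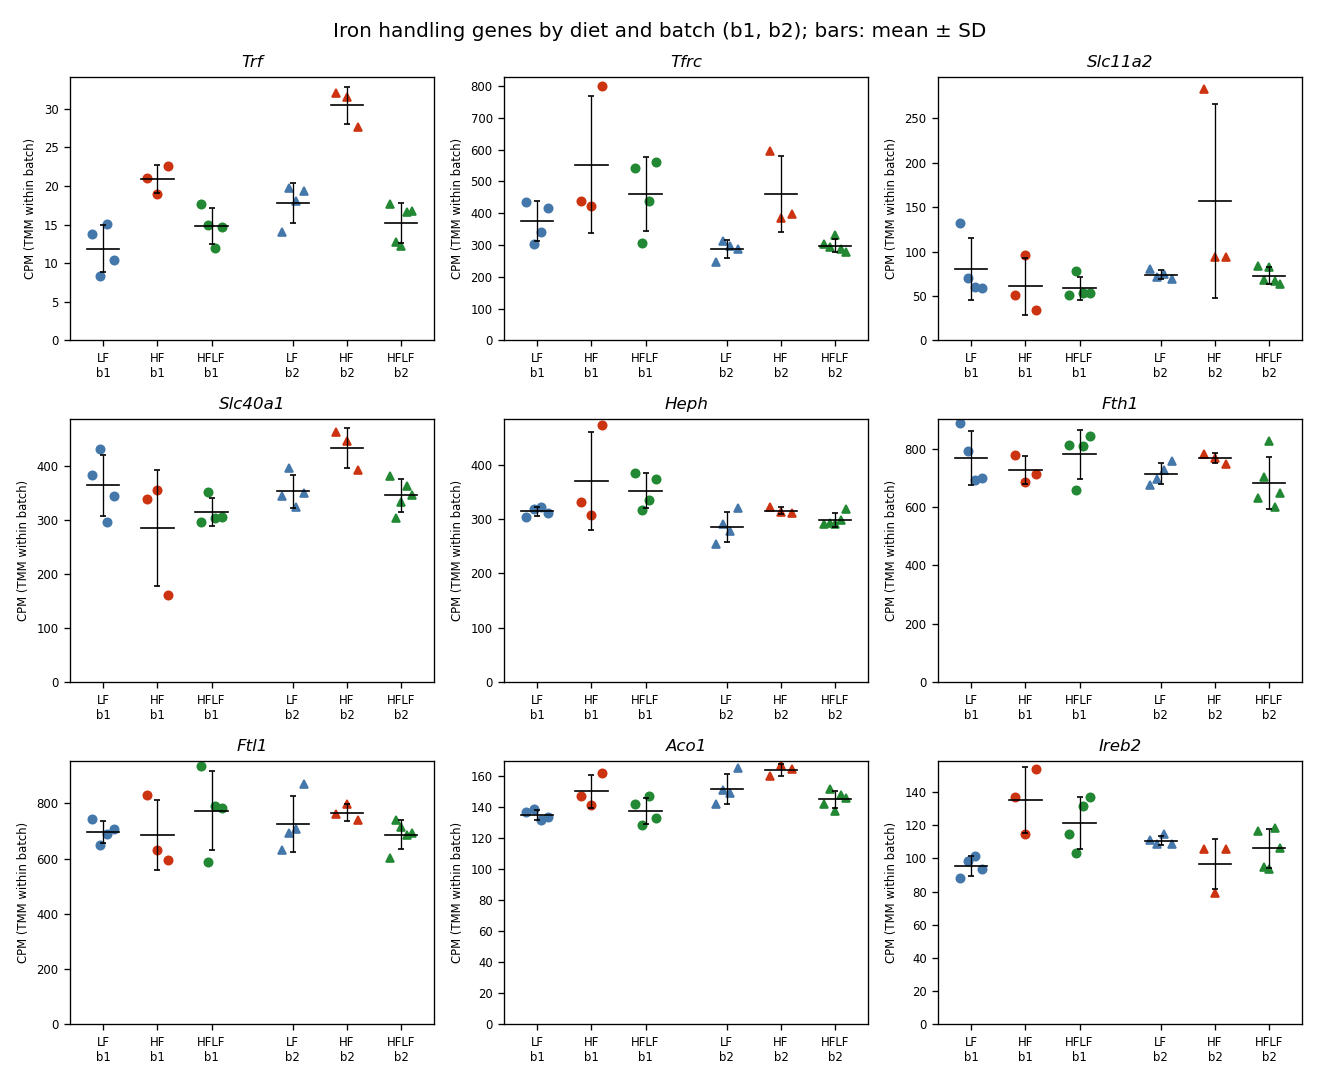
CPM (vertical axis, from 0) of the 9 members tested, by diet and batch (b1, circles; b2, triangles), with each sample as a point and mean ± SD as bars. The HF samples lie above the LF samples of their batch for Trf in both batches, while for Tfrc and Slc11a2 1 HF sample of batch 2, at 597 and 284 CPM, lies far above the other HF samples.

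**Figure D4:**
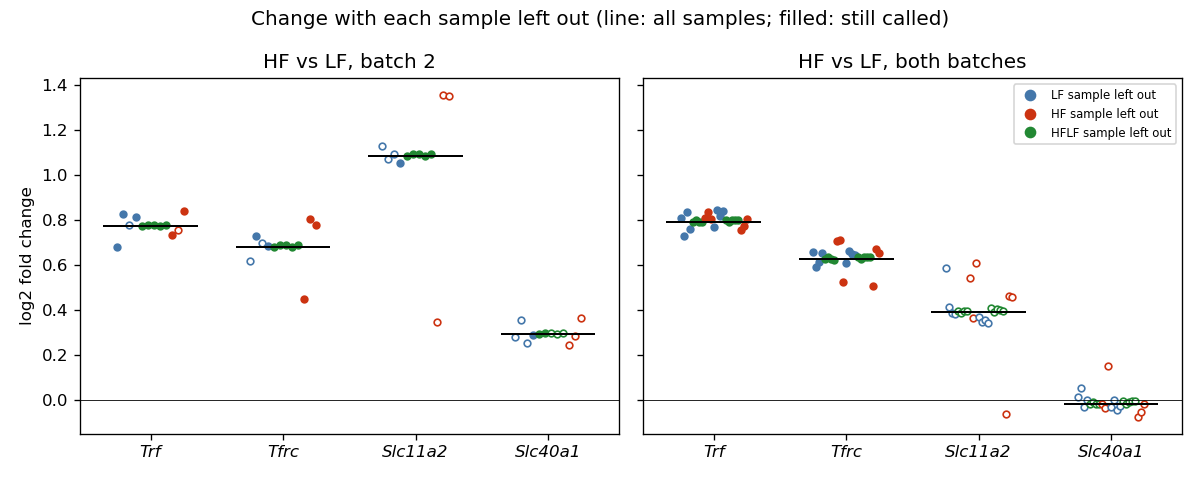
Log2 fold change of HF against LF (vertical axis) for the 4 transport genes when each sample in turn was left out, in batch 2 and in both batches; lines give the value with all samples and filled points are still called. Trf stays between 0.68 and 0.84 in batch 2, and Slc11a2 drops to 0.35 there without 1 HF sample.

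Heph, the ferroxidase that loads exported iron onto transferrin (chrX:96455436-96574484), ranged from 307 to 472 CPM in HF, from 304 to 323 in LF and from 317 to 384 in HFLF in batch 1. In batch 2 it ranged from 310.2 to 323 CPM in HF, from 254 to 321 in LF and from 290.3 to 319 in HFLF. The 472 CPM belong to the third HF sample of batch 1, and the groups overlapped in every comparison. HF against LF over both batches was 0.19 ± 0.07 on the log2 scale (adjusted p = 0.0592, edgeR), and 0.11 (adjusted p = 0.180) without that sample.

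Fth1 and Ftl1 encode the heavy and light chains of ferritin, the store of iron in the cell, and carry the 5′ IREs printed above. Fth1 (chr19:9980600-9985111) ranged in batch 1 from 686 to 779 CPM in HF, from 692 to 886 in LF and from 657 to 842 in HFLF. In batch 2 it ranged from 749 to 783 CPM in HF, from 677 to 758 in LF and from 602 to 826 in HFLF. The diets overlapped in both batches. HF and LF differed by 0.01 over both batches, with a 95% interval of -0.15 to 0.18, an interval that ends below the fitted values of Trf and Tfrc.

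Ftl1 (chr7:45457944-45459886) ranged in batch 1 from 596 to 832 CPM in HF, from 649 to 744 in LF and from 587 to 934 in HFLF, and in batch 2 from 740.1 to 798 in HF, from 633 to 869 in LF and from 602 to 739.8 in HFLF. The HF samples of batch 2 were just above the HFLF samples, with a log2 fold change of HFLF against HF of -0.16 ± 0.09 (adjusted p = 0.224, edgeR). HF and LF differed by 0.03 over both batches, with a 95% interval of -0.17 to 0.23.

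The ratio of Tfrc to Fth1 in CPM, a description without a test, sets the receptor against the store in each sample. In batch 1 it was 0.561, 0.616 and 1.12 in HF, 0.492, 0.383, 0.493 and 0.598 in LF, and 0.665, 0.467, 0.541 and 0.665 in HFLF. In batch 2 it was 0.762, 0.503 and 0.530 in HF, 0.366, 0.452, 0.410 and 0.378 in LF, and 0.480, 0.419, 0.401, 0.478 and 0.428 in HFLF. HF was above both other diets in batch 2 and overlapped both in batch 1. The ratio of Fth1 to Ftl1 had group means between 0.992 and 1.10, and the diets overlapped.

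Aco1 encodes IRP1, which is a cytosolic aconitase when it holds an iron-sulfur cluster and binds IREs when it does not (chr4:40143265-40199009). In batch 1 its levels were 147, 141 and 162 CPM in HF, 137, 139, 132 and 133 in LF, and 142, 129, 147 and 133 in HFLF. In batch 2 they were 160.0, 167 and 164 CPM in HF, 142, 151, 149 and 165 in LF, and 142, 152, 138, 148 and 146 in HFLF. The HF samples were above the LF samples in batch 1 and above the HFLF samples in batch 2, with little distance between them. The fitted difference was small and tightly measured: 0.13 ± 0.05 on the log2 scale in HF against LF (adjusted p = 0.0353, edgeR) and -0.15 ± 0.05 in HFLF against HF (adjusted p = 0.0299) over both batches, both under the fold of 1.2 and so not called. Without the third HF sample of batch 1 the adjusted p were 0.0681 and 0.0606.

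Ireb2 encodes IRP2, the other IRE-binding protein, which is degraded when iron is plentiful (chr9:54863755-54912534). In batch 1 its levels were 137, 115 and 154 CPM in HF, 88.0, 98.2, 102 and 93.7 in LF, and 115, 103, 132 and 137 in HFLF. In batch 2 they were 106, 79.5 and 106 CPM in HF, 111, 109, 115 and 109 in LF, and 116, 94.96, 93.9, 119 and 106 in HFLF. The HF samples were all above the LF samples in batch 1 and all below them in batch 2. HF against LF was 0.50 ± 0.12 on the log2 scale in batch 1 (adjusted p = 0.137, edgeR), -0.19 ± 0.10 in batch 2 (adjusted p = 0.195) and 0.16 ± 0.11 over both (adjusted p = 0.268). In batch 1 every HFLF sample was also above every LF sample, by 0.35 ± 0.11 (adjusted p = 0.792). Without the second HF sample of batch 1, HF against LF was called there (0.61, adjusted p = 0.0329), and without the third it was 0.41 (adjusted p = 0.526). In batch 2, HF against LF ranged from -0.26 to -0.06 over 18 alternatives, of which 0 were called.

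Whether the diet effects differed between the batches was tested as an interaction over 14385 genes. No gene passed at an adjusted p under 0.05 in any of the 3 comparisons (edgeR). In HF against LF, the smallest unadjusted p among the members were those of Ireb2 (0.00029), Slc11a2 (0.00552) and Slc40a1 (0.0161), with adjusted p of 0.688, 0.688 and 0.708. Ireb2 had an unadjusted p of 0.0083 in HFLF against LF (adjusted p = 0.632).

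Other genes of iron biology were counted from 5 lists. In HF against LF over both batches, the list of other uptake, storage and export genes had 3 called higher and 1 lower of 17 tested, that of regulators and the hepcidin axis 1 and 1 of 13, that of other mRNAs with a described IRE 0 and 1 of 7, that of heme 3 and 1 of 17, and that of iron-sulfur cluster assembly 3 and 0 of 31. In HFLF against HF the counts were 0 and 1, 0 and 1, 1 and 0, 0 and 2, and 0 and 4. These stand beside the 18.1% and 10.3% of all genes called. In batch 2, HF against LF gave 3, 2, 1, 0 and 1 genes higher and 0 lower in each list, and HFLF against HF gave 2 higher and 3 lower, 0 and 2, 0 and 0, 0 and 2, and 0 and 4. Of all genes, 7.44% and 14.5% were called there (3.03% higher and 5.61% lower). In batch 1, and in HFLF against LF in each fit, 0 were called by edgeR. Epas1 stands in 2 of the lists. The 12 of 24 called genes with the greatest change over both batches in HF against LF were Alas2, Steap1, Slc22a17, Steap4, Hif1a, Glrx3, Ciao2a, Egln3, Blvra, Abcg2, Bola3 and Epas1.

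Steap1, of a family of metalloreductases, was higher in HF mice by 0.67 ± 0.16 on the log2 scale over both batches (adjusted p = 0.00749, edgeR), and lower in HFLF than in HF mice (-0.72 ± 0.16, adjusted p = 0.0123). Its levels were low: 6.13, 4.25 and 8.99 CPM in HF and 2.65 to 3.77 in LF in batch 1, without overlap, and 5.94, 7.41 and 8.10 in HF and 4.85 to 7.14 in LF in batch 2, with overlap. Steap4, of the same family, was at 16.1, 13.5 and 11.96 CPM in HF and at 3.95 to 6.06 in LF in batch 2 (1.36 ± 0.22, adjusted p = 0.0116), while in batch 1 its value was -0.51 ± 0.48 (adjusted p = 0.527). It fell by 1.09 ± 0.21 in HFLF against HF in batch 2 (adjusted p = 0.0131). Over both batches Steap4 was not called in HF against LF (0.55 ± 0.32, adjusted p = 0.201, edgeR). Slc22a17, a receptor for siderophore-binding lipocalin, was lower in HF mice over both batches (-0.55 ± 0.21, adjusted p = 0.0484).

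Among the regulators, Hif1a, a subunit of the hypoxia-inducible factors, was higher in HF mice by 0.45 ± 0.13 over both batches (adjusted p = 0.0189, edgeR) and by 0.40 ± 0.11 in batch 2 (adjusted p = 0.0406). It was at 177, 222 and 185 CPM in HF and at 116 to 169.7 in LF in batch 2, without overlap. In batch 1 it was at 272, 224 and 497 in HF and at 211 to 264 in LF, with the third HF sample far above the rest. Epas1, which encodes HIF-2α, the intestinal regulator of Slc11a2, Cybrd1 and Slc40a1, was lower in HF mice over both batches (-0.29 ± 0.08, adjusted p = 0.0109), with -0.30 in batch 1 (adjusted p = 0.171) and -0.29 in batch 2 (adjusted p = 0.0778). Egln3, an oxygen- and iron-dependent prolyl hydroxylase that marks these factors for degradation, was higher in HF mice of batch 2 (0.99 ± 0.15, adjusted p = 0.00878), at 81.1, 85.5 and 56.0 CPM in HF and 29.2 to 45.7 in LF. Its value was -0.35 ± 0.22 in batch 1 (adjusted p = 0.338) and 0.35 ± 0.19 over both batches (adjusted p = 0.176), not called in either.

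Ciao2a, a cytosolic iron-sulfur assembly factor, was higher in HF mice by 0.39 ± 0.10 over both batches (adjusted p = 0.00889, edgeR) and by 0.33 ± 0.09 in batch 2 (adjusted p = 0.0417), and fell by 0.33 ± 0.10 in HFLF against HF over both (adjusted p = 0.0258). Glrx3 and Bola3, which hand on iron-sulfur clusters, were higher in HF mice over both batches by 0.43 ± 0.13 (adjusted p = 0.0193) and 0.30 ± 0.09 (adjusted p = 0.0225). Bola3 was also lower in HFLF than in HF mice (-0.39 ± 0.09, adjusted p = 0.0139). Of the heme genes, Blvra (biliverdin reductase) and Abcg2 (an exporter of porphyrins) were higher in HF mice over both batches, by 0.33 ± 0.09 (adjusted p = 0.0134) and 0.31 ± 0.10 (adjusted p = 0.0328). Alas2, the erythroid enzyme of heme synthesis, was called higher in HF mice of batch 2 (1.85 ± 0.49, adjusted p = 0.0395) at 2.15, 0.468 and 1.09 CPM in HF and 0.162 to 0.673 in LF, so that the groups overlapped. It was not called in batch 1 (0.18 ± 0.65, adjusted p = 0.883, edgeR) or over both batches (0.84 ± 0.47, adjusted p = 0.172). The summed level of 7 erythroid markers, Alas2 among them, was at most 4.13 CPM in any sample. The globin genes Hba-a1, Hba-a2, Hbb-bs and Hbb-bt are listed at 0 in all 23 samples, so the sum rests on the other 3 markers. How reads shared by such near-identical genes were counted is not stated, and the sum is not read as a low erythroid level.

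Without the third HF sample of batch 1, a fit chosen after seeing the data, Steap1, Ciao2a and Epas1 remained called in HF against LF over both batches. Hif1a (0.29, adjusted p = 0.0721, edgeR), Glrx3 (0.36, adjusted p = 0.0590), Slc22a17 (-0.42, adjusted p = 0.130), Abcg2 (0.23, adjusted p = 0.102) and Bola3 (0.27, adjusted p = 0.0555) were no longer called, nor was Blvra (0.25, adjusted p = 0.0440), which was under the fold of 1.2, and Egln3 was called (0.52, adjusted p = 0.0474). Steap1 and Bola3 remained called in HFLF against HF, while Hif1a, Blvra and Ciao2a did not (-0.23, -0.19 and -0.30, with adjusted p = 0.168, 0.125 and 0.0667). Without the second HF sample of batch 2, also chosen afterwards, Slc22a17 (-0.51, adjusted p = 0.0982), Abcg2 (0.30, adjusted p = 0.0645) and Epas1 (-0.24, adjusted p = 0.0389, under the fold of 1.2) were not called in HF against LF over both batches, nor were Hif1a, Blvra and Ciao2a in HFLF against HF (-0.36, -0.30 and -0.33, with adjusted p = 0.105, 0.0692 and 0.0617). In batch 2 alone, none of the named genes was called without that sample in HF against LF or HFLF against HF. Alas2 (2.22), Steap4 (1.38), Egln3 (0.88), Hif1a (0.31) and Ciao2a (0.30) then had adjusted p from 0.0596 to 0.215 in HF against LF, and the share of all genes called went from 7.44% to 0.103%.

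The other marker lists were measured in the same samples. Over 8 marker lists, 48 comparisons of summed levels with all markers of a list were made. The smallest adjusted p (Benjamini-Hochberg) among these exact permutation tests was 0.229, so none passed the correction. The sums without the highest marker of a list stand outside this correction, and their p are unadjusted. Epithelial markers had ratios of HF to LF of 1.04 in batch 1 (exact p = 0.429) and 1.09 in batch 2 (exact p = 0.114). Endothelial markers had ratios of HFLF to HF of 1.45 in batch 1 (exact p = 0.0286) and 1.26 in batch 2 (exact p = 0.0179), without overlap, the smallest p these sizes allow. Without Vwf, the highest of that list, the ratios were 1.71 (exact p = 0.0857) and 1.11 (exact p = 0.339), with overlap in both batches. For lymphocyte markers the ratio of HFLF to HF was 1.21 in batch 2 (exact p = 0.0179) and 0.892 in batch 1 (exact p = 0.514). Macrophage and fibroblast lists had exact p from 0.143 to 0.971 in all comparisons. The fibroblast and smooth muscle list had ratios of HF to LF of 0.992 in batch 1 (exact p = 0.971) and 0.344 in batch 2 (exact p = 0.171), and in batch 1 ratios of 2.33 in HFLF against HF (exact p = 0.200) and 2.31 in HFLF against LF (exact p = 0.143). Their part in the members' results was not tested.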

How the data were processed

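RNA from the colonic epithelium of 23 mouse samples was analysed. The values are counts as the authors deposited them, whole reads per gene locus in each sample, not normalized. By their methods, stranded libraries were sequenced as paired reads of 76 bases, filtered at a base quality over 20, trimmed with cutadapt 1.2.1, mapped to mm10 with STAR 2.5 and counted with featureCounts 1.5.0-p1. The use of strand, the handling of multi-mapping reads and the annotation are not given in the sources used here, so genes with near-identical copies or antisense partners are uncertain.

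The fits used edgeR 4.0.16 (R 4.3.3; filterByExpr, TMM, quasi-likelihood F test), with the 3 diets together, within each batch and over both with batch as a covariate. P-values were adjusted over all genes tested, and a gene was called at an adjusted p under 0.05 and a fold over 1.2. The SE was the log2 fold change divided by the square root of F. Alternatives used DESeq2 1.42.0 and limma 3.58.1 (voom). On simulated counts with a log2 fold change of 1 in HF against LF, 68.8% of 199 changed genes were called in batch 1, 83.2% of 197 in batch 2 and 94.5% of 200 in both, among 14282, 14227 and 14288 genes tested, with 8, 9 and 12 false calls. The simulated samples were independent and none was made to stand apart. The fitted changes of Trf and Tfrc over both batches, 0.79 and 0.63, were smaller than 1, so these rates do not give the power for them. Marker sums were compared by exact permutation tests, two-sided. A gene with 3 counts was taken as the limit that a count of 0 allows, for counting error only. Members and gene lists were chosen with earlier results of these data known. All 10 members were named, and of the other iron genes called in HF against LF or HFLF against HF in any fit, the 12 with the greatest change in HF against LF over both batches. Whether same-numbered samples came from 1 mouse is not known. Samples of the same diet and number correlated between batches at -0.32 to 0.22 over 11 pairs. Pairs of different numbers were not compared between batches, so these values cannot decide the question. The main fits did not pair samples by number.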

Additional observations from a re-analysis of the deposited data

Results flagged for a closer look

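In 44 groups of 4 or 5 samples tested for a sample far from the others (9 members and 2 ratios, by diet and batch), 4 values from 3 samples were found, and chance finds about 1 in 20 groups. The HF groups, of 3 samples each, were not tested in this way. The high HF samples of Tfrc and Slc11a2 described above are therefore not in this list. For Slc11a2, the first LF sample of batch 1 stood at 131.8 CPM above the other LF samples, and the second HFLF sample of batch 1 at 77.96 CPM above the other HFLF samples. The same HFLF sample was far from the others for Slc40a1, at 352.4 CPM. For Heph, the fifth HFLF sample of batch 2 stood at 319.3 CPM above the other 4.

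Ireb2 moved in opposite directions in the batches, with every HF sample above every LF sample in batch 1 and below in batch 2. The log2 difference between the batches (batch 2 minus batch 1) was -0.70 ± 0.16 (SE), with an unadjusted p of 0.00029 and an adjusted p of 0.688 over all genes (edgeR), so the difference did not pass the correction.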

How the results depend on the processing

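Of 1782 log2 fold changes recomputed under alternatives (81 results), 1673 kept their direction and side of the threshold, 28 lost a call, 12 gained one, and 69 changed sign, 0 of them called. In HF against LF, DESeq2 called 2 members in batch 1 where edgeR called 0, and leaving out 1 sample gave 0 to 2 members in batch 1, 0 to 4 in batch 2 and 2 over both batches. In batch 2 the count of 3 fell to 1 without LF replicate 1, 0 without LF replicate 3 and 1 without HF replicate 2. Without HF replicate 2 the share of all genes called went from 7.44% to 0.103%, so the loss was not particular to the members. The shares without the LF replicates are not given here. In HFLF against HF, leaving out 1 sample gave 1 to 4 members in batch 2 (1 without HF replicate 2) and 1 to 2 over both, where the count was also 1 with only the 2 diets fitted. The share of all genes called in HFLF against HF of batch 2 went from 14.5% to 0.0757% without HF replicate 2. Without the 2 high Tfrc samples, chosen after seeing the data, 1 member (Trf) was called in each of these comparisons over both batches. The cause of these changes was not tested. With a replicate block in the fit, the counts were 0, 4 and 2 members in HF against LF (batch 1, batch 2, both) and 0, 4 and 2 in HFLF against HF, and Slc40a1 in HF against LF of batch 2 was then called (0.30, adjusted p = 0.0407). The block moved the share of all genes called in HF against LF of batch 2 from 7.44% to 14.5%. Same-numbered samples of different diets correlated at -0.37 to 0.38 in batch 1 and -0.12 to 0.40 in batch 2, with 4 of 10 pairs over 0.1 in each. Pairs of different numbers were not compared, so these values cannot show whether the samples share more than a number. With same-numbered samples of the batches summed to 1 library, HF against LF kept Trf (0.78, adjusted p = 0.00141) and Tfrc (0.59, adjusted p = 0.00601), and HFLF against HF called Trf and Slc11a2 (-0.73, adjusted p = 0.0413) and not Tfrc (-0.36, adjusted p = 0.0521). A sum of ferritin genes with their pseudogenes was not run, since no such loci with counts were found in the table used here. For Cybrd1, with at most 16 counts per sample, no difference was detectable at this depth. Sign changes when 1 sample was left out are given as the lowest and highest log2 fold change over all such fits. The ranges in HF against LF were, in batch 1 those of Fth1 (-0.14 to 1e-04), Ftl1 (-0.19 to 0.077), and over both those of Fth1 (-0.0079 to 0.054), Ftl1 (-0.011 to 0.10), Slc11a2 (-0.063 to 0.61), Slc40a1 (-0.078 to 0.15). The ranges in HFLF against HF were, in batch 1 those of Heph (-0.19 to 0.14), Slc11a2 (-0.34 to 0.45), Slc40a1 (-0.15 to 0.33), Tfrc (-0.42 to 0.10), and in batch 2 those of Ireb2 (-0.0093 to 0.20), and over both those of Ftl1 (-0.070 to 0.046), Ireb2 (-0.12 to 0.042). The ranges in HFLF against LF were, in batch 1 those of Aco1 (-0.0066 to 0.058), Fth1 (-0.029 to 0.11), and in batch 2 those of Ftl1 (-0.14 to 0.019), Slc11a2 (-0.078 to 0.027), Slc40a1 (-0.073 to 0.026), Tfrc (-0.0056 to 0.10), and over both those of Aco1 (-0.035 to 0.0044), Fth1 (-0.057 to 0.015), Ftl1 (-0.025 to 0.082), Trf (-0.044 to 0.081). Ftl1 over both in HFLF against HF (0.0025) was -0.0033 with size factors and in DESeq2, -0.016 without the filter, -0.023 with the block, -0.0083 with only 2 diets and -0.0061 with samples summed, and Slc11a2 in batch 1 (-0.05) was 0.071 in voom and 0.13 with the block. In HFLF against LF, Slc11a2 in batch 2 was 0.023 with the block, and with samples summed Trf was -0.026 over both, as Slc40a1 was 0.046 in HF against LF. Without the 2 high Tfrc samples, Slc40a1 was 0.099 in HF against LF, and Ftl1 -0.054, Heph 0.029 and Ireb2 0.051 in HFLF against HF. Without the highest marker of a list, the marker ratios that crossed 1 were those of epithelium (0.996, HFLF to LF, batch 2) and, in batch 1, erythroid cells (0.826 HF to LF, 1.39 HFLF to HF, 1.15 HFLF to LF), lymphocytes (1.25, HFLF to HF), fibroblasts (1.01, HF to LF) and hepatocytes (1.03, HFLF to HF).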
